A study of Bos taurus with 12 samples.

Results

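Aminoacyl-tRNA synthetases are the enzymes that join each amino acid to its own transfer RNA, and their transcripts were followed here in cumulus cells of cattle, the follicle cells that enclose the oocyte. The members were taken by gene symbol, current or older, from a list of 36 genes: 18 cytosolic enzymes, 16 mitochondrial ones and 2 genes, GARS1 (glycine) and KARS1 (lysine), whose products serve both compartments. A probe was named for 29 of the 36 genes, by 44 probes out of the 43794 on the array. These 29 genes, among 13534 genes tested, were 15 cytosolic, 12 mitochondrial and the 2 of both compartments. Of the members, AARS2, EARS2, EPRS1, HARS2, QARS1, VARS1 and VARS2 had no named probe here and were not analysed. The other 29 all passed the filter on dim probes.

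The cytosol and the mitochondrion translate with separate sets of synthetases, all of them encoded in the nucleus, and most amino acids have a pair of genes, numbered 1 for the cytosol and 2 for the mitochondrion. In animal cells several of the cytosolic enzymes sit together in a multisynthetase complex that is held by the scaffold proteins AIMP1, AIMP2 and EEF1E1. Many cytosolic synthetase genes are known as targets of ATF4, the transcription factor of the amino acid shortage response in human and mouse cells. In the follicle, cumulus cells pass amino acids and other small molecules to the oocyte through gap junctions.

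The cells came from slaughterhouse ovaries of cattle and were grouped by the chromatin of the oocyte nucleus (the germinal vesicle, GV). The groups were GV1, GV2 and GV3, in the order of increasing chromatin condensation, and GV0, the least condensed one, with no treatment in any group. For each RNA extract, cells from 10 cumulus-oocyte complexes of the same stage were pooled, per the labels, and the RNA was amplified before it was labelled. Each of the 12 arrays carried GV1, GV2 or GV3 RNA in Cy5 (4 arrays a stage, 1 slide a stage) and GV0 RNA in Cy3, and the arrays of a slide are numbered as areas 1 to 4. Values are given as log2 of a stage divided by GV0, so that 0 means no difference. The labels do not tie the pools to animals, so the p-values cover only how these pools differed from each other. GV0 always carried Cy3 and each stage had a slide of its own, so a dye effect cannot be told apart from a difference to GV0, nor a slide from a stage. Arrays with the same area number on different slides shared their GV0 signal (Cy3 correlation across probes of 0.987 to 0.997, against 0.93 to 0.974 for different areas). The labels do not say which GV0 pool an array carried, and whether a shared array position adds to these correlations was not tested. From the correlations, the 3 stages were read as set against the same 4 GV0 pools. Their comparisons with GV0 are thus not taken as independent. A block for the area number takes the spread between these pools out of the error. It leaves the spread of GV0 itself out of the test. For a synthetase read from its brightest probe, the adjusted p with the block stands below where it changes a call, and for other lists the block is given as counts.

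The median spot signal per array was 132 to 230 in Cy5 and 277 to 373 in Cy3. Of the 11 cumulus and granulosa markers (FSHR, CYP19A1, AMH and others), 11 lay above the negative controls in both channels on all 12 arrays. The mean log2 ratio of 10 theca and stroma markers was 2.30 on area 3 of GV1 and lay between -0.25 and 0.06 on the other 11 arrays. The mean over 5 leukocyte markers lay between -0.11 and 0.64, and that over 7 oocyte markers between -0.17 and 0.07. That over 6 endothelial markers lay between -0.36 and 0.02, and that over 3 red blood cell markers between -0.16 and 0.70. Cy5 lay above the negative controls on all 12 arrays for 4 of 10 theca and stroma markers and 2 of 5 leukocyte markers. It did so for 2 of 6 endothelial, 3 of 7 oocyte and 1 of 3 red blood cell markers. At an adjusted p under 0.05 in limma, 1 cumulus and granulosa marker passed as lower in GV1, 1 as higher in GV2 and 1 as lower in GV3. Of the theca and stroma markers, 1 passed as higher and 1 as lower in both GV1 and GV2. As higher, 2, 1 and 1 leukocyte markers passed in GV1, GV2 and GV3. Of the oocyte markers, 1, 2 and 1 passed as higher, and 1 as lower in each stage. In each stage 2 endothelial markers passed as lower, and in GV2 a red blood cell marker as higher. Shares of all genes follow below. Cy5 and Cy3 signals of a synthetase lay above the negative controls on all 12 arrays for each of the 29 genes, except Cy5 for PARS2.

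Most synthetase transcripts stayed within 2-fold of GV0 in each stage. TARS3, an enzyme that charges the threonine transfer RNA, was the 1 gene of 29 that passed the threshold (adjusted p under 0.05 in limma, over all probes), and it did so in GV2. Each gene was read from its brightest probe, and by it no synthetase passed in GV1 or in GV3. Fainter probes of FARSA and WARS1 passed in both of these stages, of TARS2 in GV1 and of CARS2 in GV3, as given below. Of all genes, 9.47% passed in GV1 (3.78% higher and 5.69% lower), 10.3% in GV2 (4.58% and 5.73%) and 11% in GV3 (4.3% and 6.7%). At an unadjusted p under 0.05 in limma, 4 synthetases were counted in GV1, 2 in GV2 and 6 in GV3, against 25.2%, 25.8% and 26.8% of all genes. Apart from TARS3, the mean log2 ratios of the 28 other genes lay between -0.37 and 0.51 in the 3 stages. The 95% interval of the change stayed within 2-fold of GV0 in 27 of 29 synthetases in GV1, 27 in GV2 and 26 in GV3 (93.1%, 93.1% and 89.7%), and in 88.2%, 88.4% and 87.1% of all genes. In RNA of pooled cells, less RNA per cell and fewer cells of a kind cannot be told apart.

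**Figure D1:**
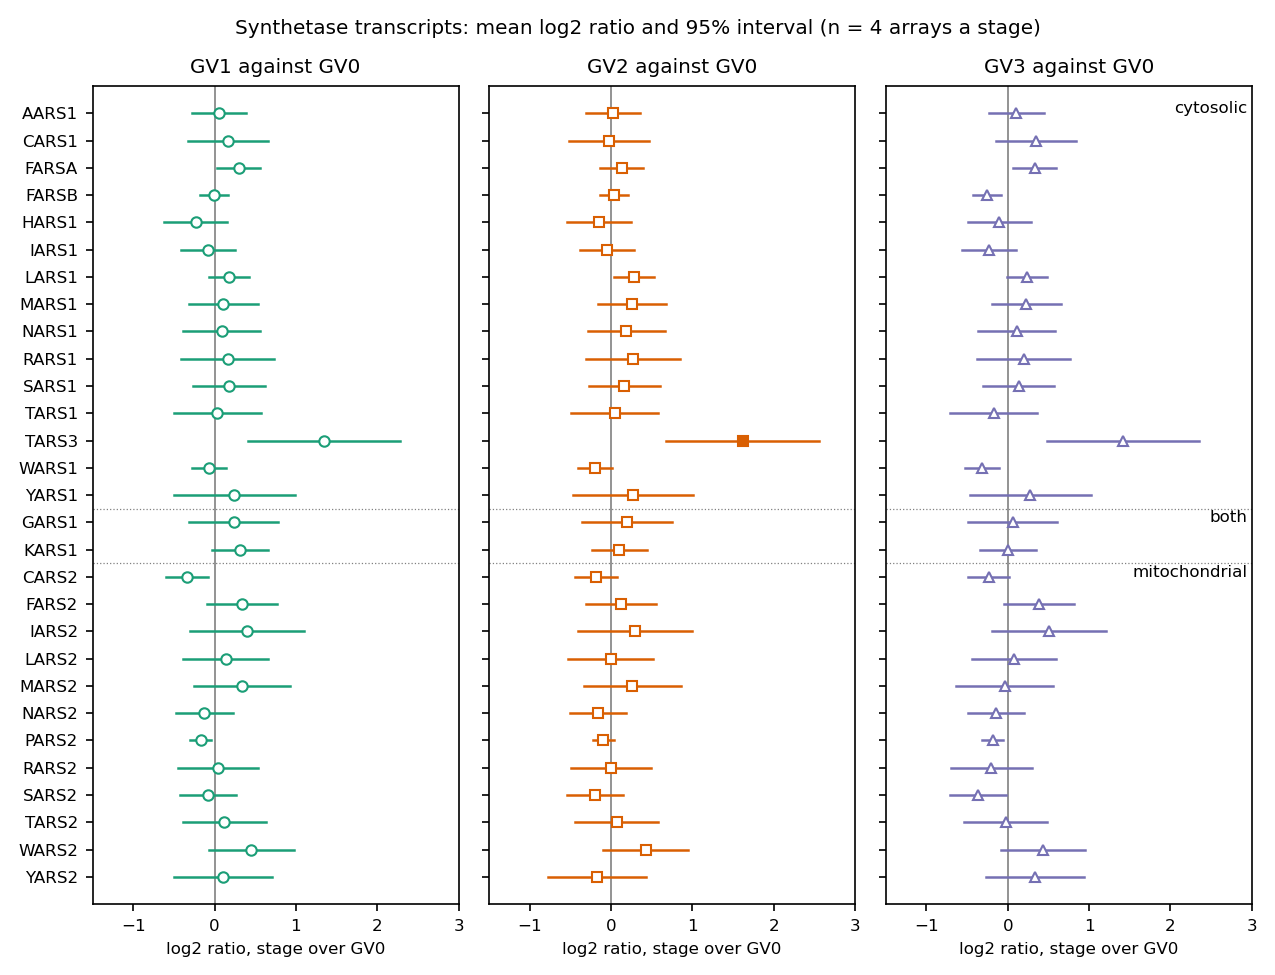
Mean log2 ratio of GV1, GV2 and GV3 over GV0 (x axis) for the 29 synthetase genes (y axis), with the 95% interval of the fit as a line (n = 4 arrays a stage); a filled symbol marks an adjusted p under 0.05. TARS3 in GV2 is the filled symbol, at 1.62, and the other genes lie between -0.37 and 0.51.

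With the area block, 6 synthetases passed in GV1 (4 higher and 2 lower), 6 in GV2 (4 higher and 2 lower) and 8 in GV3 (3 higher and 5 lower). The shares of all genes that passed with the block were 14.7% higher and 15% lower in GV1, 15.6% and 14.1% in GV2, and 14.7% and 16.1% in GV3. With the area as a random effect, which keeps the spread between areas in the test, 0 synthetases passed in GV1, 1 in GV2 and 1 in GV3. The gene was TARS3 in both. The blocked calls fell on 11 genes. TARS3, WARS2 and CARS2 were called in all 3 stages, and KARS1, LARS1, RARS1, IARS2, PARS2, SARS2, WARS1 and FARSB in 1 or 2. PARS2 passed the filter on dim probes only through the GV0 channel, so its calls as lower are counted but not read as falls.

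TARS3, which the array lists under its older name TARSL2, is a paralogue of TARS1. Its log2 ratios on areas 1 to 4 were 1.25, 0.89, 2.36 and 0.89 on the GV1 arrays. They were 0.15, 1.14, 2.85 and 2.34 on the GV2 arrays, and 0.71, 0.74, 1.93 and 2.30 on the GV3 arrays. TARS3 was above GV0 on 12 of 12 arrays, lowest on area 1 of GV2 and highest on area 3 of GV2, and the 3 stages overlapped. The mean log2 ratio was 1.35 (SE 0.43) in GV1, 1.62 (SE 0.43) in GV2 and 1.42 (SE 0.43) in GV3, about 2.54-fold, 3.07-fold and 2.68-fold over GV0. The adjusted p in limma was 0.0671 in GV1, 0.0342 in GV2 and 0.0535 in GV3, and with the area block 0.00646, 0.00281 and 0.00441. The GV2 call was lost when area 2, 3 or 4 of the GV2 arrays was left out, with log2 changes of 1.78, 1.21 and 1.38 and adjusted p of 0.0716, 0.123 and 0.143 in limma. On area 3 of GV1, where the theca and stroma markers were high, TARS3 stood at 2.36, and it stood at 2.85 and 1.93 on area 3 of GV2 and GV3, where they averaged -0.16 and -0.15. The part of these markers in the result was not tested.

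By their brightest probes, the other threonine enzymes lay near GV0. TARS1, the main cytosolic enzyme, had mean log2 ratios of 0.03 in GV1, 0.04 in GV2 and -0.17 in GV3 (SE 0.24 each), and it was above 0 on 4 of 12 arrays, of which 3 were those of area 4. TARS2, the mitochondrial enzyme, had 0.12, 0.07 and -0.02 (SE 0.23 each). The adjusted p in limma of these TARS1 and TARS2 probes was at least 0.696 in each stage. A fainter TARS2 probe averaged -0.30 in GV1, -0.27 in GV2 and -0.21 in GV3 (SE 0.08 each). Its adjusted p in limma was 0.0392, 0.0505 and 0.118, and with the area block 0.00575, 0.00771 and 0.0223. The remaining TARS2 probe averaged 0.02, -0.04 and 0.12, with adjusted p of at least 0.326 in limma.

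The cytosolic phenylalanine enzyme is built from an alpha subunit (FARSA) and a beta subunit (FARSB). FARSA had log2 ratios of 0.33, 0.43, 0.10 and 0.32 on the GV1 arrays, in the order of the areas. It had 0.36, -0.00, 0.00 and 0.15 on the GV2 arrays and 0.18, 0.08, 0.89 and 0.20 on the GV3 arrays. It lay above 0 on 11 of 12 arrays, with adjusted p in limma of 0.135 in GV1, 0.534 in GV2 and 0.0947 in GV3. A second FARSA probe, fainter than the first, passed in GV1 (log2 ratio 0.30, SE 0.07, adjusted p 0.0203 in limma) and in GV3 (0.27, SE 0.07, adjusted p 0.0276), but not in GV2 (0.13, adjusted p 0.256).

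FARSB had log2 ratios of -0.21, 0.03, 0.29 and -0.11 on the GV1 arrays. It had 0.01, 0.12, -0.11 and 0.13 on the GV2 arrays, and -0.24, -0.25, -0.15 and -0.36 on the GV3 arrays. All 4 GV3 arrays were below 0. They overlapped with the GV1 arrays, while the GV2 arrays all lay above them. FARSB averaged -0.25 in GV3 (SE 0.08, adjusted p 0.0597 in limma, 0.0379 with the area block), against -0.00 in GV1 and 0.04 in GV2. FARSB was the member with the largest stage share of its spread, 49.6% of the sum of squares over 12 arrays.

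WARS1 charges the tryptophan transfer RNA in the cytosol and is known as an interferon-induced gene in human cells. Its brightest probe had log2 ratios of -0.15, 0.22, -0.19 and -0.14 on the GV1 arrays. They were -0.24, -0.20, -0.43 and 0.09 on the GV2 arrays and -0.13, -0.24, -0.51 and -0.37 on the GV3 arrays. The probe was below 0 on 10 of 12 arrays and averaged -0.06 in GV1, -0.20 in GV2 and -0.31 in GV3 (SE 0.09 each). The adjusted p in limma was 0.717 in GV1, 0.21 in GV2 and 0.0552 in GV3, and 0.02 with the area block in GV3. A second WARS1 probe, above the negative controls in both channels on all 12 arrays, was lower than GV0 on every array, with log2 ratios from -0.74 to -0.28. It fell by 0.46 in GV1, 0.55 in GV2 and 0.47 in GV3 on the log2 scale (SE 0.07 each; adjusted p in limma 0.0043, 0.00167 and 0.0031). The remaining WARS1 probe lay above the negative controls on 3 arrays in each channel and averaged 0.17 in GV1, -0.10 in GV2 and -0.08 in GV3, with adjusted p of at least 0.236 in limma.

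The multisynthetase complex holds 7 of the listed synthetases, of which IARS1, KARS1, LARS1, MARS1 and RARS1 were measured. None of the 5 passed the threshold in any stage, against 9.47%, 10.3% and 11% of all genes in GV1, GV2 and GV3. Their median log2 ratio was 0.16 in GV1, 0.25 in GV2 and 0.20 in GV3, and that of all genes was 0.00, 0.00 and -0.01. LARS1, the leucine enzyme, had log2 ratios of 0.06, 0.46, 0.03 and 0.17 on the GV1 arrays. It had -0.07, 0.27, 0.35 and 0.57 on the GV2 arrays and 0.12, 0.56, 0.13 and 0.15 on the GV3 arrays. LARS1 was above 0 on 11 of 12 arrays, and its mean was 0.18 in GV1, 0.28 in GV2 and 0.24 in GV3 (SE 0.11 each). The adjusted p of LARS1 in GV2 was 0.129 in limma and 0.041 with the area block.

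RARS1, the arginine enzyme, had a mean log2 ratio of 0.27 in GV2 (SE 0.26), with an adjusted p of 0.551 in limma and of 0.0388 with the area block. It ranged from 0.74 to 0.93 on area 2 and from -0.69 to -0.33 on area 3, whatever the stage. KARS1 had log2 ratios of 0.86, 0.33, -0.04 and 0.10 on the GV1 arrays. It had 0.17, 0.35, -0.37 and 0.26 on the GV2 arrays and 0.23, -0.06, -0.34 and 0.20 on the GV3 arrays, low on area 3 of each slide. The mean of KARS1 was 0.31 in GV1 (SE 0.16, adjusted p 0.22 in limma, 0.042 with the area block), 0.10 in GV2 and 0.00 in GV3.

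The other cytosolic enzymes were AARS1 (alanine), CARS1 (cysteine), HARS1 (histidine), IARS1 (isoleucine), MARS1 (methionine), NARS1 (asparagine), SARS1 (serine) and YARS1 (tyrosine). With GARS1, their mean log2 ratios lay between -0.23 and 0.35 in the 3 stages, and none passed with or without the area block.

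Among the mitochondrial enzymes, CARS2 (cysteine) was the lowest in GV1. Its log2 ratios were -0.52, -0.10, -0.18 and -0.56 on the GV1 arrays. They were -0.20, -0.00, -0.09 and -0.45 on the GV2 arrays and -0.50, -0.10, 0.10 and -0.43 on the GV3 arrays, lowest on areas 1 and 4 of each slide. CARS2 averaged -0.34 in GV1, -0.19 in GV2 and -0.23 in GV3 (SE 0.12 each), with adjusted p in limma of 0.0832, 0.329 and 0.215, and of 0.00499, 0.0488 and 0.021 with the area block. A second CARS2 probe was below 0 on each array (-0.49 to -0.08) and passed as lower in GV3 (log2 ratio -0.24, SE 0.07, adjusted p 0.0461 in limma). Its Cy5 signal lay above the negative controls on 7 of 12 arrays, of which 4 were of GV1, 1 of GV2 and 2 of GV3. The GV3 call of this probe is therefore not read as a fall.

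SARS2 charges the mitochondrial serine transfer RNA. It had log2 ratios of 0.45, -0.36, -0.31 and -0.08 on the GV1 arrays. It had 0.27, -0.44, -0.40 and -0.22 on the GV2 arrays and -0.00, -0.72, -0.43 and -0.31 on the GV3 arrays. On each area the GV3 value was below both the GV1 and the GV2 value. The mean was -0.08 in GV1, -0.20 in GV2 and -0.37 in GV3 (SE 0.16 each), with adjusted p in limma of 0.799, 0.449 and 0.151, and of 0.297, 0.0214 and 0.00145 with the area block. A second SARS2 probe had mean log2 ratios above 0, at 0.25, 0.14 and 0.06 (SE 0.11 each), with adjusted p of at least 0.151 in limma. Its Cy5 signal exceeded the negative controls on 8 of 12 arrays and its Cy3 signal on 5.

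PARS2, the mitochondrial proline enzyme, lay close to the negative controls. Cy5 did not exceed the negative controls on any of the 4 GV1 or 4 GV2 arrays and did on 2 of the 4 GV3 arrays, whereas Cy3 did on all 12. The log2 ratios were -0.24, -0.13, -0.14 and -0.17 on the GV1 arrays. They were 0.03, -0.18, -0.25 and 0.03 on the GV2 arrays and -0.18, -0.21, -0.25 and -0.10 on the GV3 arrays. The Cy5 level of GV1 and GV2 is thus not well above background, and no fold is given for them. PARS2 passed the filter on dim probes only through Cy3, and its calls with the area block are not read as falls. The adjusted p in limma was 0.0826 in GV1, 0.329 in GV2 and 0.0628 in GV3, and with the area block 0.0486, 0.238 and 0.0368.

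WARS2, the mitochondrial tryptophan enzyme, and IARS2, the mitochondrial isoleucine enzyme, had ratios that repeated by area number on each slide. WARS2 had log2 ratios of 0.82, 0.92, -0.33 and 0.40 on the GV1 arrays. It had 0.58, 0.94, -0.30 and 0.47 on the GV2 arrays and 0.76, 0.82, -0.13 and 0.28 on the GV3 arrays. It was positive on areas 1, 2 and 4 and negative on area 3 of each slide, and its mean was 0.45, 0.42 and 0.43 (SE 0.24 each). The adjusted p of WARS2 in limma was 0.24 in GV1, 0.275 in GV2 and 0.26 in GV3, and with the area block 0.00164, 0.00197 and 0.00153.

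IARS2 had log2 ratios of 1.29, 0.37, -0.28 and 0.23 on the GV1 arrays. It had 1.07, 0.42, -0.65 and 0.32 on the GV2 arrays and 1.39, 0.82, -0.13 and -0.06 on the GV3 arrays. It was highest on area 1 and lowest on area 3 of each slide. The mean was 0.40 in GV1, 0.29 in GV2 and 0.51 in GV3 (SE 0.32 each), with adjusted p of 0.458, 0.603 and 0.334 in limma, and of 0.0188, 0.0577 and 0.00648 with the area block.

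FARS2, the mitochondrial phenylalanine enzyme, is a single chain and no partner of FARSA and FARSB. It had log2 ratios of -0.13, 0.52, 0.44 and 0.51 on the GV1 arrays. It had -0.23, -0.18, 0.29 and 0.60 on the GV2 arrays and -0.06, 0.31, 1.13 and 0.14 on the GV3 arrays. FARS2 was below 0 on area 1 of each slide, and its mean was 0.33, 0.12 and 0.38 (SE 0.19 each), with adjusted p of at least 0.228 in limma. The other mitochondrial genes, LARS2 (leucine), MARS2 (methionine), NARS2 (asparagine), RARS2 (arginine), TARS2 and YARS2 (tyrosine), had mean log2 ratios between -0.20 and 0.34.

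**Figure D2:**
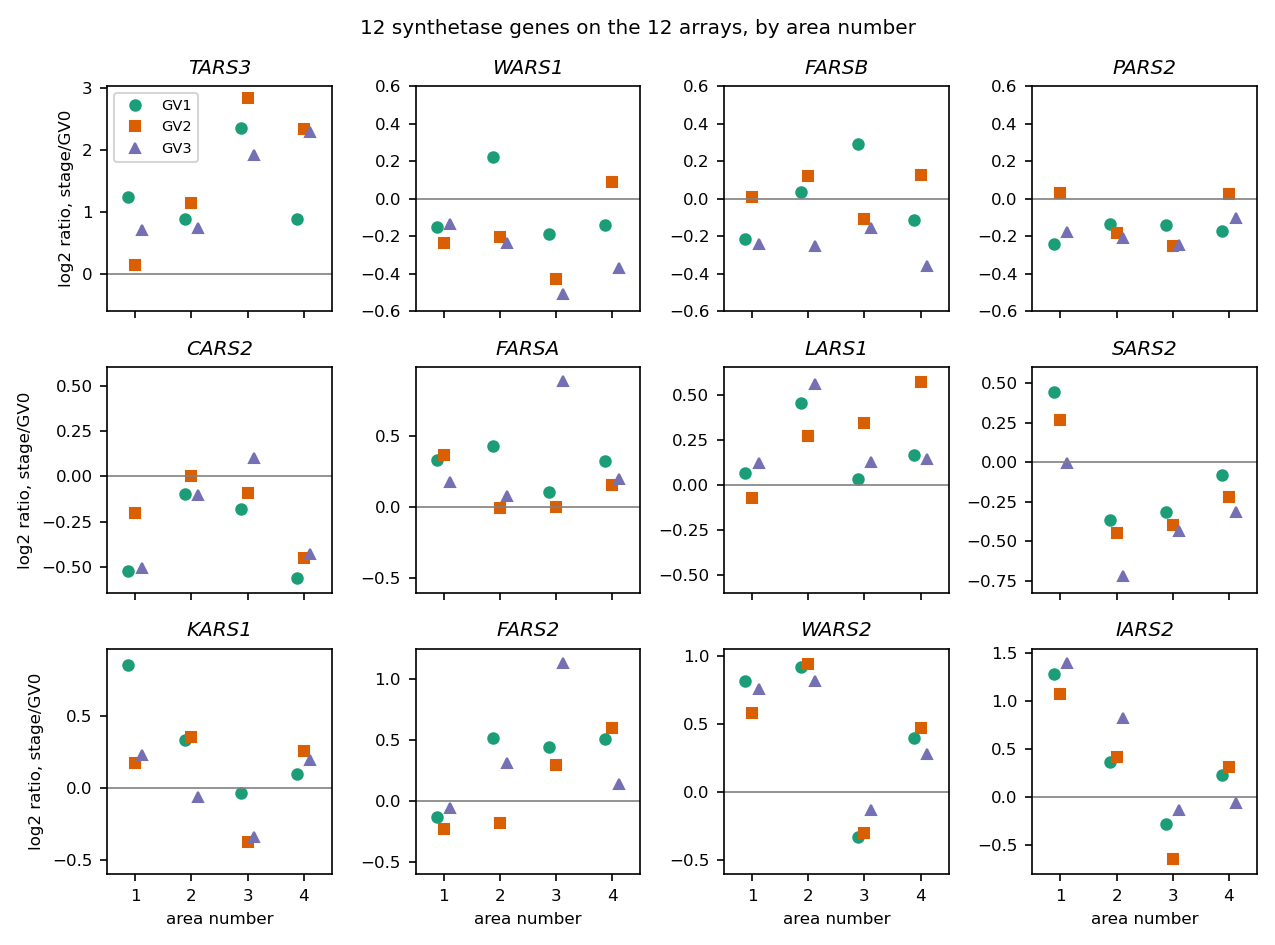
Log2 ratio over GV0 (y axis, scaled for each gene) of 12 synthetase genes on the 12 arrays, by area number (x axis), with a symbol for each of GV1, GV2 and GV3. The 3 stages lie close together within an area for WARS2 and IARS2, TARS3 is above 0 on all 12 arrays, and FARSB is below 0 on the 4 GV3 arrays.

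The spread of a synthetase over the 12 arrays followed the area number more than the stage. In a split of the sum of squares over 12 arrays, the area number took a median of 76.9% in the 29 synthetases and the stage 4.06%, against 58.3% and 8.56% in the 13455 genes measured on all 12 arrays. The area share exceeded the stage share in 27 of 29 synthetases (93.1%) and in 87.5% of all genes. It exceeded 50% in 24 of 29 synthetases (82.8%) and in 60.6% of all genes. These shares describe the 12 arrays and carry no test. If arrays of an area share their GV0 pool, as read from the Cy3 signals, the spread of GV0 enters the area share of every gene. The stage share holds only differences among GV1, GV2 and GV3, not those to GV0. A split over 4 areas and 3 stages also gives the area number more room. The area share was 96.6% for WARS2, 95.5% for TARS2, 93.7% for AARS1, 92.9% for RARS1 and 91.2% for IARS2, and the stage share of these 5 genes was at most 2.06%. YARS1, the cytosolic tyrosine enzyme, averaged 1.26 on area 1 and between -0.24 and 0.15 on the other 3 areas. The stage share exceeded the area share in 2 synthetases, FARSB (49.6% against 12.1%) and FARSA (14.7% against 7.01%). Most of the spread of FARSA, 78.3%, fell on neither.

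**Figure D3:**
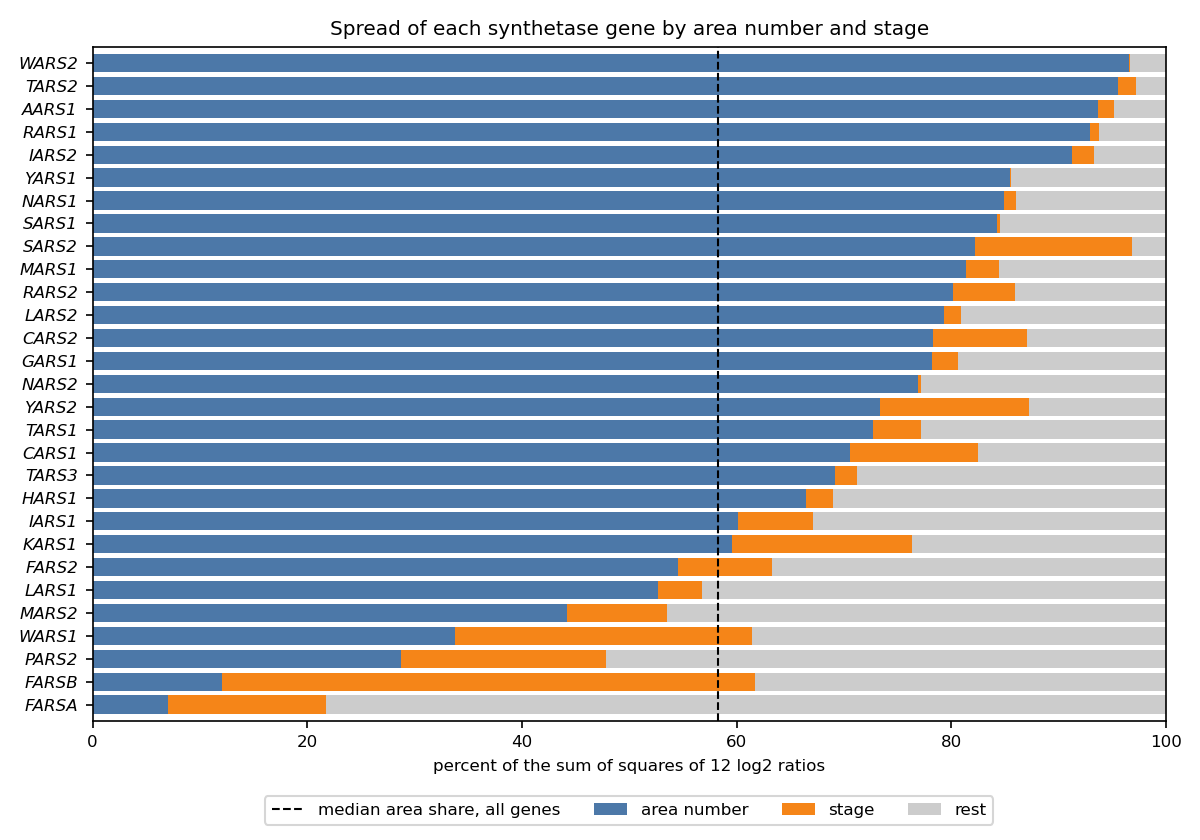
Percent of the sum of squares of 12 log2 ratios (x axis) that falls on the area number, on the stage and on the rest, for each of the 29 synthetases (y axis). The dashed line is the median area share over all genes, 58.3%, and the shares of area run between 7.01% for FARSA and 96.6% for WARS2.

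Cytosolic and mitochondrial enzymes had low medians in each stage. The median log2 ratio of the 15 cytosolic genes was 0.11 in GV1, 0.13 in GV2 and 0.13 in GV3, with 11, 11 and 10 genes above 0. That of the 12 mitochondrial genes was 0.11, -0.00 and -0.03, with 8, 5 and 5 genes above 0. The median over all genes was 0.00 in GV1, 0.00 in GV2 and -0.01 in GV3. Per array, the cytosolic median lay above the mitochondrial one on 8 of 12 arrays, among them each array of areas 1 and 4. On area 2 the cytosolic genes stood lower on every slide, with medians of 0.19 in GV1, -0.13 in GV2 and -0.16 in GV3, against 0.41, 0.21 and 0.39 for the mitochondrial genes. The order of the classes differed between area numbers, and no test was made over the lists.

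**Figure D4:**
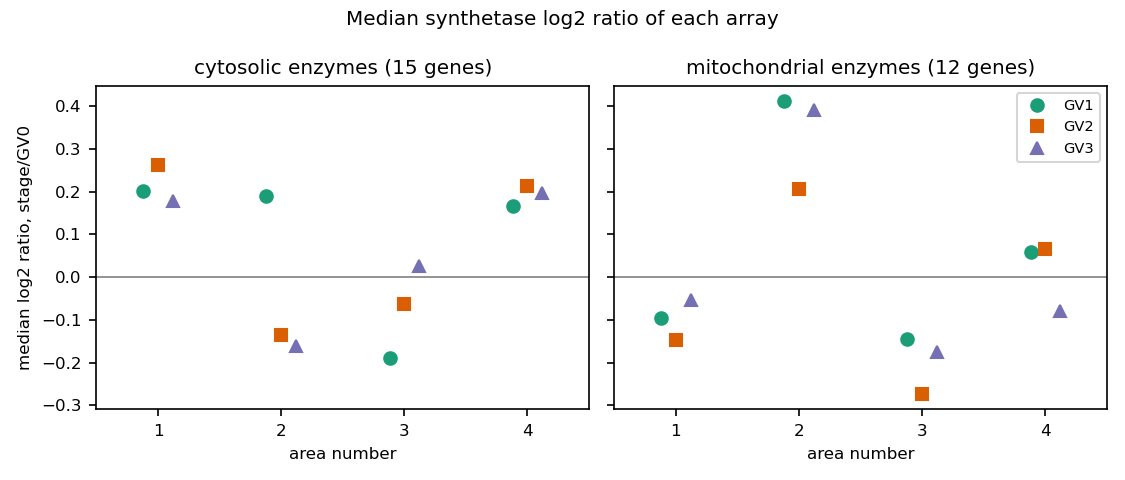
Median log2 ratio over GV0 (y axis) of the 15 cytosolic and the 12 mitochondrial synthetase genes on each of the 12 arrays, by area number (x axis) and stage (symbols). On area 2 the cytosolic medians lie at 0.19, -0.13 and -0.16, below the mitochondrial ones, which reach 0.41.

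The stages were next set against each other, where the GV0 channel and a constant dye effect cancel. No synthetase passed the adjusted threshold in limma in GV2 against GV1, GV3 against GV1 or GV3 against GV2, with or without the area block, and 0% of all genes did. At an unadjusted p under 0.05 in limma there were 0, 1 and 1 synthetases, against 0.953%, 2.01% and 2.76% of all genes. The gene was FARSB in both cases, with a log2 difference of -0.25 (95% interval -0.49 to -0.01) in GV3 against GV1 and of -0.29 (95% interval -0.53 to -0.05) in GV3 against GV2. The differences between stages lay between -0.38 and 0.51 in the 29 genes. The 95% interval stayed within 2-fold in all 3 differences for 23 of them and reached past it for the other 6.

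Genes with several probes showed how far a single probe can speak for a gene. Of the 44 probes, 42 were kept, and 10 genes had more than 1. The r of the 12 ratios with the brightest probe was above 0 for 8 of the 13 other probes. It ran from -0.728 to 0.606 (12 arrays, read as sharing 4 GV0 pools). The 2 KARS1 probes ran in opposite ways: the fainter one had -0.98, 0.09, 0.94 and 0.13 on areas 1 to 4 of GV1, where the brighter one had 0.86, 0.33, -0.04 and 0.10. Counting probes instead of genes, 3 of 42 passed in GV1, 2 in GV2 and 3 in GV3, against 10.8%, 11.8% and 12.1% of all probes. They were the TARS3 probe in GV2, the WARS1 probe in all 3 stages, the FARSA probe in GV1 and GV3, the CARS2 probe in GV3 and a TARS2 probe in GV1 (log2 ratio -0.30, SE 0.08, adjusted p 0.0392 in limma). That TARS2 probe ranged from -0.53 to 0.00 over the 12 arrays, while the brightest TARS2 probe was positive on 7 of 12. Among the fainter probes, the area block added calls for TARS2 in GV2 and GV3 (adjusted p 0.00771 and 0.0223), CARS2 in GV2 (0.0412), NARS1 in GV3 (0.0187) and NARS2 in GV1 (0.0348). The CARS2 probe had Cy5 above the negative controls on 1 of the 4 GV2 arrays, so its call there is not read as a fall. That NARS2 probe, at a log2 ratio of -0.17 in GV1, had Cy5 above the negative controls on 4 of 12 arrays and Cy3 on 11. It passed the filter only through the GV0 channel, so its call as lower is not read as a fall.

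The proteins that work beside the synthetases were read from lists of their own. Of the 3 scaffold proteins of the multisynthetase complex, AIMP2 fell in all 3 stages and AIMP1 and EEF1E1 did not pass. Of all genes, 5.69% passed as lower in GV1, 5.73% in GV2 and 6.7% in GV3. AIMP2 ranged from -0.45 to -0.26 on the GV1 arrays, from -0.46 to -0.10 on the GV2 arrays and from -0.66 to -0.32 on the GV3 arrays, below GV0 on each of them. Its mean log2 ratio was -0.39, -0.32 and -0.47 (SE 0.08 each; adjusted p in limma 0.0109, 0.0226 and 0.00398). AIMP1 had 0.17 in GV1, 0.16 in GV2 and 0.37 in GV3 (adjusted p 0.528, 0.559 and 0.157 in limma), and 0.00536 with the area block in GV3.

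None of the 6 cytosolic elongation factors, the proteins that bring charged transfer RNA to the ribosome and move it on, passed in any stage. With the area block, 2 passed as higher in GV1, 1 in GV2 and 1 in GV3 (EEF2, the translocase, and EEF1G). Shares of all genes, for each list of this paragraph, were 3.78%, 4.58% and 4.3% higher in GV1, GV2 and GV3. As lower, 5.69%, 5.73% and 6.7% passed. With the block, these shares were 14.7%, 15.6% and 14.7% higher and 15%, 14.1% and 16.1% lower. Of 12 measured genes of mitochondrial translation (of 13 listed), 1 fell in GV1, 2 in GV2 and 2 in GV3, and none rose. With the area block, 1 passed as higher and 4 as lower in GV1, 0 and 4 in GV2, and 1 and 2 in GV3. TSFM, the nucleotide exchange factor of the mitochondrial elongation factor that carries charged transfer RNA, fell to -0.82 in GV1, -0.88 in GV2 and -1.003 in GV3 (log2 ratio, SE 0.17 each; adjusted p in limma 0.0131, 0.00919 and 0.00463). It ranged from -1.40 to -0.48 over the 12 arrays. MTFMT, which formylates the initiator methionyl transfer RNA after MARS2 has charged it, fell in GV2 (-0.73, SE 0.17, adjusted p 0.0211 in limma) and in GV3 (-0.76, SE 0.17, adjusted p 0.0162), and had -0.52 in GV1 (adjusted p 0.074 in limma, 0.0046 with the area block). Of 5 measured genes of trans-editing and transfer RNA recycling (of 6 listed), none passed. With the area block, 2 were higher and 0 lower in GV1, 1 and 0 in GV2, and 2 and 1 in GV3, among them XPOT, the exporter of transfer RNA from the nucleus, as higher in each stage.

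Of the amino acid response genes, 14 of 16 were measured, and 3 passed as lower and 0 as higher in each stage. Of all genes, 5.69% passed as lower in GV1, 5.73% in GV2 and 6.7% in GV3, and 3.78%, 4.58% and 4.3% as higher. With the area block, 3 were higher and 5 lower in GV1, 3 and 6 in GV2, and 2 and 6 in GV3. The shares of all genes with the block were 14.7% higher and 15% lower in GV1, 15.6% and 14.1% in GV2, and 14.7% and 16.1% in GV3. The amino acid transporter subunits SLC3A2 and SLC7A5 were among the higher genes, with log2 ratios of 0.46 to 0.75 and adjusted p of at least 0.211 in limma without the block. ATF4 itself had log2 ratios of 0.27, 0.11 and 0.18 (adjusted p in limma 0.407, 0.769 and 0.583), and ASNS, asparagine synthetase, had -0.12, -0.14 and 0.01. SESN2, a leucine sensor, fell to -0.39, -0.43 and -0.25 (SE 0.05 each; adjusted p in limma 0.00148, 0.000788 and 0.00908). SHMT2, the mitochondrial enzyme that makes glycine from serine, fell to -0.41, -0.38 and -0.74 (SE 0.08 each; adjusted p in limma 0.0132, 0.016 and 0.000673). PSAT1, an enzyme of serine synthesis, fell to -1.66 in GV3 (SE 0.48, adjusted p 0.0466 in limma), with -0.71 in GV1 and -0.98 in GV2. NUPR1, a stress-induced transcriptional regulator, passed as lower in GV1 and GV2 (adjusted p 0.034 and 0.0371 in limma). Its Cy5 signal was above the negative controls on none of the 12 arrays and its Cy3 signal on 6, so no fold is given. NUPR1 passed the filter only through the GV0 channel, so its calls, which are in the counts above, are not read as falls. The median log2 ratio of the 14 genes was -0.09 in GV1, -0.28 in GV2 and -0.21 in GV3.

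**Figure D5:**
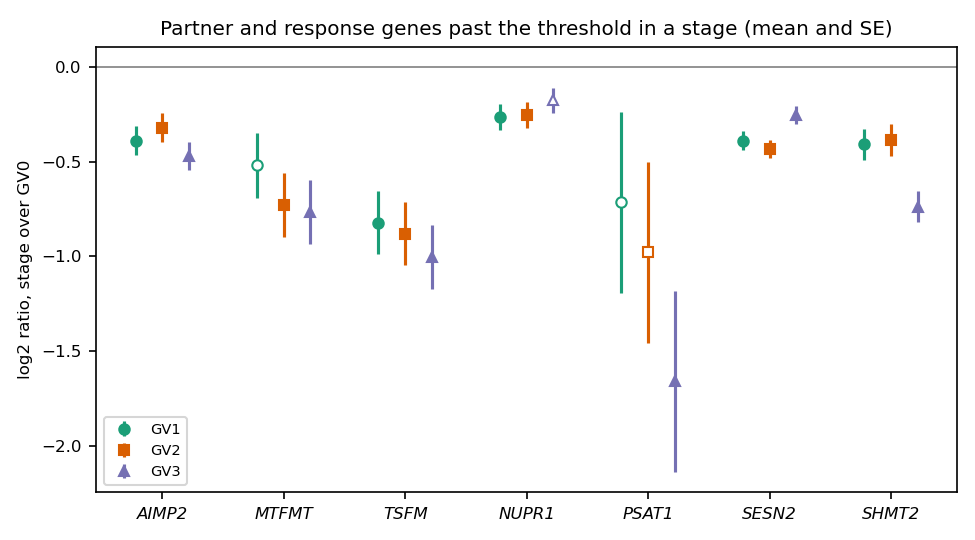
Mean log2 ratio of GV1, GV2 and GV3 over GV0 (y axis), with the SE of the fit, for the 7 genes of the partner and response lists (x axis) that passed in at least 1 stage; filled symbols mark an adjusted p under 0.05. All lie below 0, with PSAT1 in GV3 at -1.66. NUPR1 is drawn although its Cy5 signal was above the negative controls on no array, so its position is not read as a fold.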

How the data were processed

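The deposited scanner tables hold, per the file headers, mean and median pixel intensity per spot and local background intensity in both channels, not normalised, and a 0 or 1 flag, which is no signal but of another kind, with its rule not given in the sources used here. The deposited series matrix holds log2 ratios, for which the authors' steps are not given in the sources used here. They match loess ratios of median signals without background correction (r of 1, median absolute difference up to 0.000708; stage over GV0; medians -0.01 to 0.00) and served as an alternative. Mean signals were background-corrected (normexp, offset 50, flagged spots left out) and loess-normalised within arrays in limma 3.58.1 (R 4.3.3). Of 43794 probes, 36321 were kept: those above the mean plus 2 SD of 153 negative controls in either channel on at least 3 of 4 arrays of a stage. Control spots (1426) were left out. Symbols came from the platform table and were updated through RefSeq. A gene was read from its brightest kept probe.

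One limma fit with a coefficient per stage used all 12 arrays, with Benjamini-Hochberg adjustment over kept probes, and 6 comparisons were made. The number of arrays limits the precision. The members and lists were chosen with earlier results of these data known. Values on all 12 arrays are given for synthetases past the threshold and, up to 12 genes, those of lowest unadjusted p. Of other lists, genes past the threshold are named. The area number was checked as a pairing: deviations from the stage mean correlated at 0.492 to 0.735 in 12 pairs of arrays of the same area and at -0.464 to 0.0659 in other pairs, and the best partner of each of 12 arrays had its area number in 12 cases. The fits were tested on simulated data with changes put into GV2. There, in GV2 against GV0, the fit with the area block made more false calls than the fit without it. The alternatives changed background, normalisation, filter, spot signal, block, probe choice and arrays. A planned count of a promoter motif was not run, since no promoter sequences were used here.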

Additional observations from a re-analysis of the deposited data

Results flagged for a closer look

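In 7 of the 93 sets of 4 arrays checked (31 quantities in 3 stages), the highest or lowest array stood apart, with a gap to its neighbour above Dixon's critical share of the range; chance alone picks out about 1 in 20. For FARS2 in GV1 this was area 1 at -0.131, and for WARS1 in GV1 it was area 2 at 0.223. TARS1 in GV1 stood at 1.13 on area 4. In GV3, FARSA stood at 0.887 on area 3, LARS1 at 0.561 on area 2 and YARS1 at 1.42 on area 1. The median of the cytosolic genes in GV1 was -0.189 on area 3, the array with the high theca and stroma markers. On the other slides, YARS1 was also highest on area 1, at 0.91 in GV1 and 1.44 in GV2, whereas FARSA on area 3 was 0.10 in GV1 and 0.00 in GV2. What sets these arrays apart was not tested.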

How the results depend on the processing

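The 29 alternatives left the number of synthetases that differed between stages at 0, and the cytosolic median stayed above 0 in each stage (0.01 to 0.21). The mitochondrial medians ran from -0.20 to 0.18 and took both signs in each stage. The counts of synthetases past the threshold against GV0 (0 in GV1, 1 in GV2, 0 in GV3) moved as follows. With flagged spots kept in the background fit there were 0 in GV2 and 4 in GV3. Without background correction there were 1 in GV1 and 2 in GV3, and with an offset of 10 there was 1 in GV3. Median centring gave 5 in GV1, 3 in GV2 and 2 in GV3. The count in GV2 was 0 with median spot signals, when both channels had to exceed background on each of the 12 arrays (28 genes), with the series matrix and in a fit of the stage alone. The replicate block gave 6, 6 and 8, and the area as a random block gave 1 in GV3. The mean of all probes of a gene gave 1, 2 and 2. Leaving out 1 array or 1 area gave 0 to 1 in GV1, GV2 and GV3. TARS3 in GV2 stayed above GV0 in all 29 alternatives (log2 1.21 to 2.11) and past the threshold in 18. FARSB in GV1 turned to 0.396 under median centring (adjusted p 0.0379 in limma), and the cause was not tested. FARSB in GV2 ran from -0.106 to 0.447 over the 29 alternatives and passed in 1. FARSB in GV3 ran from -0.395 to 0.108, above GV0 in 1 alternative and past the threshold in 4. With 4 arrays a stage, 2-fold changes stayed within the 95% interval of 3 of the 29 genes.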
